A study of Homo sapiens with 4 samples.

Results

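A set of 10 genes of calcium entry, calcium release and mitochondrial ion transport, read by 30 probe sets, was followed in Jurkat cells after LEF1 knockdown. They are ORAI1, ORAI2, ORAI3, STIM1, STIM2, TRPC1, ITPR1, ITPR3, LETM1 and LETM2, chosen by gene symbol among 19775 symbols and 54613 probe sets, and every probe set annotated to 1 of these symbols was used. Jurkat is an established human T-cell acute lymphoblastic leukemia line. The siLEF1 group (2 arrays) received 100 nM of a pool of siRNAs against LEF1 and the siNT group (2 arrays) 100 nM of a pool of non-targeting siRNAs, with the same transfection reagent and 24 h of culture, and the labels call the replicates biological. RNA was read on Affymetrix HG-U133 Plus 2.0 arrays, whose probe sets are groups of short probes lying mostly near the 3' end of a transcript, and values are robust multichip average (RMA) signals on the log2 scale. All cells come from a single line, non-transfected cells were not analysed here, and fewer cells that transcribe a gene cannot be told apart from less RNA per cell.

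Calcium signaling in T cells starts with inositol trisphosphate, which opens receptor channels of the endoplasmic reticulum encoded by the ITPR genes. STIM proteins sense the emptied store and open ORAI channels in the plasma membrane, a route called store-operated calcium entry, and TRPC1 is a cation channel that can be activated alongside them. The calcium that enters reaches calcineurin and the NFAT transcription factors. LETM1 is a protein of the inner mitochondrial membrane that takes part in potassium and calcium exchange, and LETM2 is its paralog.

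In siLEF1 cells LETM2 and TRPC1 were called lower, each in 1 probe set, while 0 of the 30 probe sets were called higher. The LETM2 probe set was 5.88-fold lower and the TRPC1 probe set 3.91-fold lower, the latter with siLEF1 signals near background, where the size of a fold is uncertain. A probe set was called where limma, run over all 54613 probe sets, gave a Benjamini-Hochberg adjusted p below 0.05 together with more than a 2-fold difference. These 2 lower probe sets stand beside 0.183% of all probe sets called lower and 0.0238% called higher. TRPC1 and LETM2 were put in the group because of these values, so nothing is read from the count, and the values of all 10 genes are given as a description. The remaining 25 probe sets of the other 8 genes had log2 differences (siLEF1 minus siNT) from -0.24 to 0.81, with adjusted p from 0.153 to 0.998 in limma.

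LEF1 itself had 3 probe sets, of which the brightest gave signals of 11.24 and 11.56 on the siLEF1 arrays and of 12.30 and 11.92 on the siNT arrays, a log2 difference of -0.71 that did not pass (adjusted p = 0.191 from limma). The other LEF1 probe sets had differences of -0.93 and -0.19 and did not pass either. Pearson's r across probe sets was lowest between siNT replicate 2 and the siLEF1 arrays, at 0.979 and 0.980, and 0.988 to 0.995 for all other pairs of arrays. The 5' minus 3' signal of ACTB, a measure of RNA integrity, was -1.08 and -1.55 with siLEF1, against -1.80 and -1.95 with siNT. That of GAPDH was -0.34 and -0.32 with siLEF1, against -0.39 and -0.65 with siNT. The part of RNA integrity in the differences below was not tested. All 9 T-cell markers listed, among them CD3D and LCK, lay above the median signal of the array on every array except CD2 on siNT replicate 2. The T-cell markers' summed linear signal was 17280 and 17355 with siLEF1, against 17237 and 13765 with siNT. The B-cell, myeloid and epithelial or stromal markers were above the array median for 2 of 4, 2 of 5 and 3 of 6 genes on each array. In these 3 lists 0 genes passed. The summed signal of the B-cell list lay between 151 and 165 on the 4 arrays, that of the myeloid list between 105 and 144 and that of the epithelial and stromal list between 402 and 471. MS4A1 of B cells, MPO of myeloid cells and EPCAM of epithelia lay under the array median on all 4 arrays. On all 4 arrays CD79A and CD79B of B cells, CSF1R of myeloid cells and COL1A1, DCN and KRT5 lay above it.

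**Figure D1:**
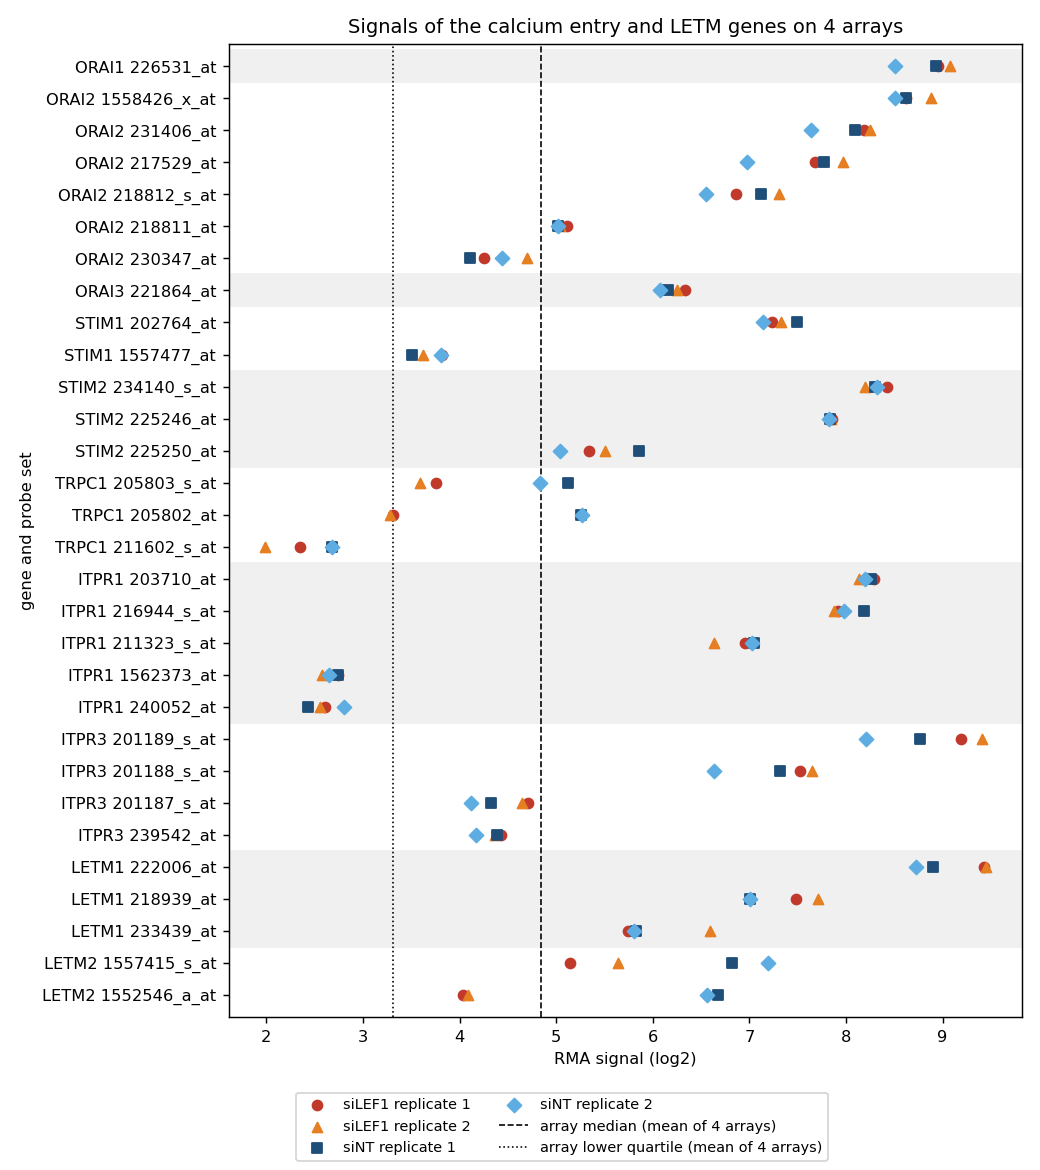
Log2 RMA signal (horizontal axis) for each of the 30 probe sets of the 10 genes (vertical axis), with 1 point for each array, circles and triangles for siLEF1 and squares and diamonds for siNT. The dashed and dotted lines mark the median and the lower quartile of the arrays. In both LETM2 probe sets and all 3 TRPC1 probe sets the siLEF1 points lie to the left of the siNT points.

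STIM1 and STIM2, the calcium sensors of the endoplasmic reticulum, had log2 differences close to 0. The main STIM1 probe set (202764_at) had signals of 7.23 and 7.32 with siLEF1 and of 7.50 and 7.14 with siNT. The siLEF1 arrays lay between the siNT arrays, and the log2 difference was -0.04 with a 95% interval from -0.47 to 0.39. These intervals are those of limma for each probe set alone, not adjusted for the number of probe sets. The other STIM1 probe set (1557477_at) lay under the array median on all 4 arrays and had a difference of 0.06.

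STIM2, which responds to smaller losses of stored calcium than STIM1, was read by 3 probe sets. Probe set 225246_at had signals of 7.86 and 7.85 with siLEF1 and of 7.84 and 7.83 with siNT, so that all arrays lay within a narrow range. Its log2 difference was 0.02 (95% interval -0.33 to 0.37). The brightest, 234140_s_at, had a difference of -0.00 (95% interval -0.38 to 0.38). In 225250_at the siNT arrays were far apart, at 5.86 and 5.04, and the siLEF1 signals of 5.34 and 5.50 lay between them. For all 5 STIM probe sets the interval stayed within a 2-fold change in either direction. Smaller changes than these intervals allow could not be seen with 2 arrays per group.

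The ORAI genes encode the pore of store-operated entry. ORAI1 is the main pore subunit in T cells, and its probe set had signals of 8.95 and 9.08 with siLEF1 and of 8.93 and 8.50 with siNT. The groups did not overlap, but siLEF1 replicate 1 and siNT replicate 1 were nearly level. The log2 difference was 0.30 (standard error 0.19, 95% interval -0.16 to 0.76), and against siNT replicate 1 alone it was 0.09.

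ORAI2, another pore subunit, was read by 6 probe sets with log2 differences from 0.06 to 0.45, all above 0. The brightest (1558426_x_at) had signals of 8.62 and 8.88 with siLEF1 and of 8.62 and 8.50 with siNT, and some of its probes may match other transcripts, as the ending x of its name marks. Probe set 217529_at had the widest spread, at 7.68 and 7.97 with siLEF1 and 7.77 and 6.97 with siNT. There the groups overlapped and the siNT replicates differed by 0.80, more than the log2 difference of 0.45. Of the 6 probe sets 3 had no overlap with higher siLEF1 signals, where 27.4% of all probe sets did so. Nothing is read from this count. The single probe set of ORAI3 had signals of 6.33 and 6.25 with siLEF1 and of 6.15 and 6.07 with siNT, and its log2 difference was 0.18 (95% interval -0.18 to 0.53).

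The ORAI probe sets had small positive values, some of which changed sign with the scaling. All 8 were above 0 as deposited and after centring of each array on its median. When the arrays were centred on the median of 11 housekeeping genes, 4 of the 8 were below 0. That step shifted every log2 difference by -0.23 (the array-wide median went from 0.04 to -0.19). The housekeeping genes were no stable reference, with differences from -0.73 (GUSB) to 0.68 (HPRT1), 4 below 0 and 7 above it. The gene at their median was not the same on all arrays. In 6 of the 8 siNT replicate 2 had the lower of the siNT signals, and without that array 1 of the 8 was below 0. Their median log2 difference was 0.10 against siNT replicate 1 alone and 0.38 against siNT replicate 2 alone. None of the 8 passed in limma, and 0 had an unadjusted p under 0.05.

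TRPC1 encodes a cation channel of the plasma membrane. Probe set 205802_at had signals of 3.31 and 3.28 with siLEF1 and of 5.26 and 5.27 with siNT. The replicates of each group were nearly identical, and a wide gap separated the groups. The log2 difference was -1.97 (standard error 0.14, 95% interval -2.32 to -1.62), so that the siLEF1 signal was 25.5% of the siNT signal. Both siLEF1 signals were below the lower quartile of all signals (3.34 and 3.30 on these arrays), a range close to background in which a fold is imprecise.

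The brightest TRPC1 probe set, 205803_s_at, had signals of 3.76 and 3.59 with siLEF1 and of 5.12 and 4.83 with siNT. Again the groups did not overlap, and the log2 difference was -1.30 (standard error 0.17, 95% interval -1.72 to -0.88). The annotation pairs both probe sets with the same TRPC1 transcript record. The third, 211602_s_at, is paired with another record. It had signals of 2.35 and 1.99 with siLEF1 and of 2.68 on both siNT arrays, all below the lower quartiles of the arrays, and its log2 difference was -0.51. At that level its difference carries little weight, so the TRPC1 values rest on the other 2 probe sets. Of these, 205803_s_at was dim as well, under the array median on 3 arrays, both siLEF1 arrays and siNT replicate 2.

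The annotation lists 2 start sites of TRPC1. Their promoters are shown because TRPC1 is lower after knockdown of LEF1, a transcription factor that binds DNA at the core letters CTTTG. LETM2, also lower, was not examined in this way, so nothing about LEF1 and the lower genes is read from the windows. Each sequence is the 250 bases before an annotated start on the plus strand of GRCh38.p14, from RefSeq. Capitals mark each CTTTG on either strand (CAAAG in print where it lies on the minus strand) and each longer CTTTGAA or CTTTGAT, which contains the shorter one. The ITPR1 promoter is shown for comparison, as another of the 10 genes whose window holds the longer motif.
TRPC1 upstream start, chr3:142723784-142724033: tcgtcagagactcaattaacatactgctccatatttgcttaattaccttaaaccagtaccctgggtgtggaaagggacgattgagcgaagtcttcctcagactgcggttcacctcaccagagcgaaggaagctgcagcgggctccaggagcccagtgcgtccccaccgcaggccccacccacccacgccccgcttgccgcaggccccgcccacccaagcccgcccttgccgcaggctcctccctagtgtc
TRPC1 downstream start, chr3:142733942-142734191: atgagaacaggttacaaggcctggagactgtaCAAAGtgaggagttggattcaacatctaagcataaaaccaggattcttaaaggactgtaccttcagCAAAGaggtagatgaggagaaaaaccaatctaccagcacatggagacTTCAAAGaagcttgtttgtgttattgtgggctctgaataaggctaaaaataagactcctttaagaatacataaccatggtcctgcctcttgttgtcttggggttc
ITPR1, chr3:4493098-4493347: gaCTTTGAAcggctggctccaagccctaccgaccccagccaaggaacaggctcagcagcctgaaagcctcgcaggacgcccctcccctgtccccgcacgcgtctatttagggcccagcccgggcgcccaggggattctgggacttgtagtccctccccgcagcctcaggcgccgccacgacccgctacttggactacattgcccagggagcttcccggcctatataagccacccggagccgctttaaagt
The upstream TRPC1 window held neither motif, and the downstream one held 3 CTTTG on the minus strand, 1 of them within a CTTTGAA whose printed letters begin 105 bases before the start. The ITPR1 window held 1 CTTTGAA on the plus strand, 248 bases before the start. Over 35116 promoter windows of this length 5.94% held CTTTGAA or CTTTGAT and 42.1% held CTTTG. The windows of ORAI2, ORAI3, STIM2 and ITPR3 held neither. Windows of ORAI1, LETM1 and LETM2 were not examined. The 4 windows listed for STIM1 held 0 of the longer motif, and 3 of them held the core. Of these, chr11:3855414-3855663 and chr11:3855453-3855702 overlap and share the same CTTTG on the minus strand. A match describes letters and no binding, and the arrays do not tell which start site was used.

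ITPR1 and ITPR3 encode inositol trisphosphate receptors, through which the store releases calcium. ITPR1 had 5 probe sets with log2 differences from -0.24 to -0.02. The brightest, 203710_at, had signals of 8.29 and 8.13 with siLEF1 and of 8.26 and 8.20 with siNT, so that the siLEF1 arrays enclosed the siNT arrays, and its difference was -0.02 (95% interval -0.38 to 0.35). Of the other 4 probe sets 2 had no overlap between groups, at -0.19 and -0.24, where 21.2% of all probe sets had no overlap with lower siLEF1 signals, and 2 lay under the lower quartile on all arrays. All 5 intervals included 0.

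ITPR3 showed values on the other side of 0. The brightest of its 4 probe sets, 201189_s_at, had signals of 9.19 and 9.41 with siLEF1 and of 8.77 and 8.20 with siNT. The siLEF1 arrays lay above both siNT arrays, which differed from each other by 0.56. The log2 difference was 0.81 (standard error 0.22, 95% interval 0.28 to 1.35) and did not pass (adjusted p = 0.180 from limma). Probe sets 201188_s_at and 201187_s_at had differences of 0.61 and 0.46 without overlap, and 239542_at had a difference of 0.12 with overlap. The brightest had a difference of 0.53 against siNT replicate 1 alone and of over 1 against siNT replicate 2 alone. With housekeeping centring 3 of the 4 were above 0 and 239542_at was at -0.11.

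**Figure D2:**
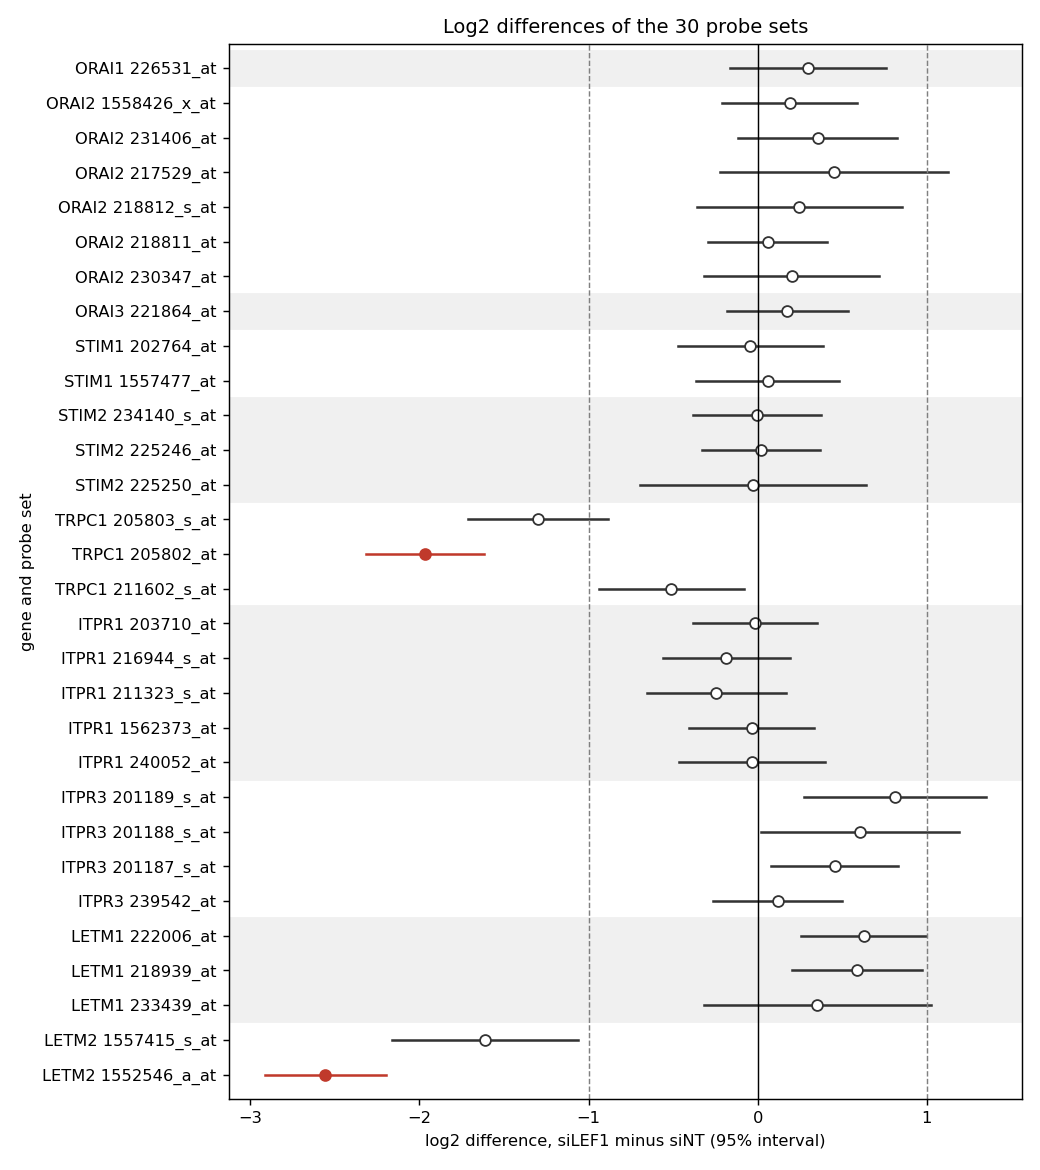
Log2 difference siLEF1 minus siNT (horizontal axis) of the 30 probe sets, with bars for the 95% interval of limma, dashed lines at a 2-fold change and filled red points for the called probe sets. LETM2 and TRPC1 lie at the left, from -2.56 to -0.51, and STIM1 and STIM2 lie near 0, while LETM1 and ITPR3 reach 0.63 and 0.81.

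LETM1 and LETM2 had differences of opposite sign. LETM2 was read by 2 probe sets. Probe set 1552546_a_at, whose name marks probes shared by alternative transcripts of the gene, had signals of 4.04 and 4.08 with siLEF1 and of 6.67 and 6.56 with siNT. Replicates were within 0.11 of each other, and 2.48 log2 units separated the groups. The log2 difference was -2.56 (standard error 0.15, 95% interval -2.91 to -2.20), so that the siLEF1 signal was 17.0% of the siNT signal. Both siLEF1 signals lay under the array medians, 4.84 and 4.85.

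The brighter LETM2 probe set, 1557415_s_at, had signals of 5.14 and 5.64 with siLEF1 and of 6.82 and 7.19 with siNT. Here the replicates were further apart, by 0.50 and 0.38, and the groups did not overlap. The log2 difference was -1.61 (standard error 0.23, 95% interval -2.16 to -1.06), a 3.06-fold lower signal.

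LETM1, the better known paralog, had 3 probe sets with positive values. The brightest (222006_at) had signals of 9.43 and 9.45 with siLEF1 and of 8.90 and 8.72 with siNT. All siLEF1 values were higher than all siNT values, by a log2 difference of 0.63 (95% interval 0.26 to 1.00). Probe set 218939_at had signals of 7.48 and 7.71 with siLEF1, and its siNT signals were within 0.01 of each other, at 7.01 for the higher one. Its log2 difference was 0.59 (95% interval 0.21 to 0.97). In 233439_at siLEF1 replicate 2 stood at 6.59 and the other 3 arrays between 5.75 and 5.83, so that its difference of 0.35 came from that array. None of the LETM1 values passed (smallest adjusted p = 0.153 from limma). They were above 0 after both centrings, from 0.13 to 0.40 with housekeeping genes, and against each siNT array alone, from 0.34 to 0.72, but 233439_at was at -0.07 without siLEF1 replicate 2.

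Near the threshold, the called probe sets of LETM2 and TRPC1 had adjusted p of 0.0163 and 0.0225 in limma, and the brighter probe sets of TRPC1 and LETM2, just outside it, had 0.0604 and 0.0687. Ordered by p among probe sets with negative values over the whole array, these 4 ranked 4, 13, 176 and 221. Leaving out an array leaves 1 array in its group, and the spread then comes from the other group alone. When siLEF1 replicate 1 was left out, 0 probe sets of the array were called by limma (3688 at an unadjusted p under 0.05), with log2 differences of -2.53 for the LETM2 and -1.99 for the TRPC1 probe set. Leaving out siLEF1 replicate 2 likewise gave 0 calls (4623 at an unadjusted p under 0.05), with -2.58 and -1.95, and so did leaving out siNT replicate 2 (6232 at an unadjusted p under 0.05), with -2.61 and -1.96. Without siNT replicate 1 both were called, with -2.50 and -1.97, and so was the brightest TRPC1 probe set.

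Other lower genes were also called by a part of their probe sets. Of 73 genes with a probe set called lower, 50 had several probe sets, and in 40 of these only 1 probe set was called. In 21 of the 50, TRPC1 and LETM2 among them, the brightest probe set was not the called one. These counts are of calls at the threshold and not of differences in size, and the uncalled brightest probe sets of TRPC1 and LETM2 lay at -1.30 and -1.61 on the log2 scale.

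**Figure D3:**
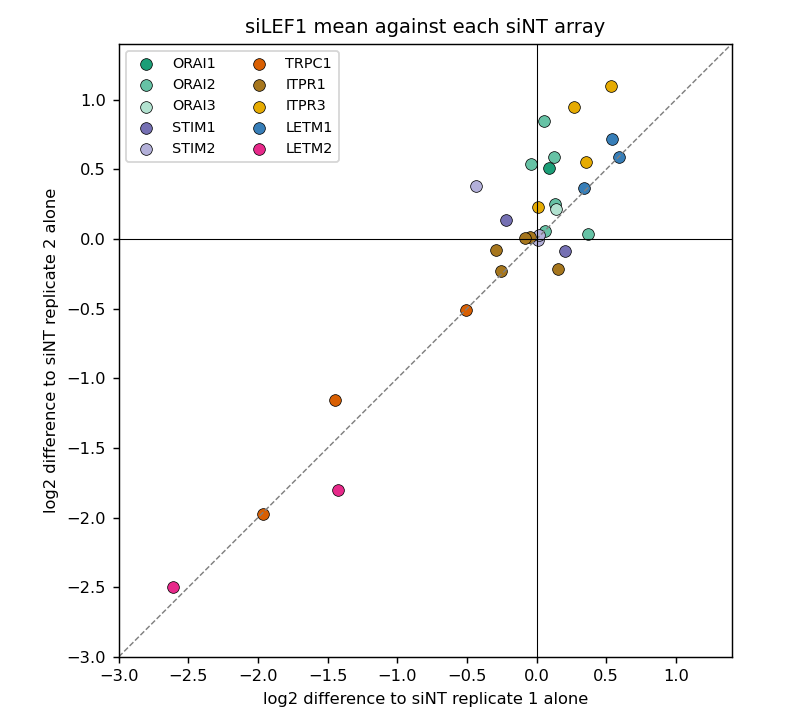
Log2 difference of the siLEF1 mean to siNT replicate 1 alone (horizontal axis) and to siNT replicate 2 alone (vertical axis), with 1 point for each of the 30 probe sets, colored by gene. The LETM1 points and the called points of LETM2 and TRPC1 lie near the dashed line of equal differences, while points of ORAI1, ORAI2 and ITPR3 and 1 of STIM2 lie furthest above it.

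The siNT replicates differed from each other in the same direction in most of these probe sets. In 21 of the 30, siNT replicate 2 had the lower signal, against 26518 of all 54613 probe sets. The median difference was -0.10, against 0.01 over all probe sets. The difference between groups was smaller than that between the siNT replicates in 15 of the 30, none of them a TRPC1 or LETM2 probe set. The groups did not overlap in 18 of the 30 probe sets, 7 with lower and 11 with higher siLEF1 signals, against 48.6% of all probe sets (21.2% lower and 27.4% higher), and 10 had an unadjusted p under 0.05, against 15.6% of all. Since the genes were chosen on this contrast, nothing is read from these counts.

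Other genes of calcium handling were taken from 6 lists of 98 genes, of which 92 had a probe set with a single symbol, and the brightest probe set stood for its gene. None of the 92 passed in limma in either direction, where 0.329% of all 19775 genes did by the same choice of probe set. At an unadjusted p under 0.05 there were 21 (22.8%), against 18.5% of all genes, and in 56 (60.9%) the groups did not overlap, against 54.5% of all genes. Their median log2 difference was 0.08, against 0.02 for all genes. Of the 92, 36 were below 0 and 56 above it, against 9194 and 10581 of all 19775 genes. In 61 of the 92 siNT replicate 2 had the lower siNT signal, against 10085 of all 19775 genes.

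Among 12 regulators of store-operated entry 0 passed, and the median was -0.01. TESPA1, a T-cell protein that binds inositol trisphosphate receptors, had signals of 6.97 and 7.10 with siLEF1 and of 7.71 and 7.72 with siNT, a log2 difference of -0.68. CRACR2A, a calcium sensor that stabilizes the STIM and ORAI complex, had 8.30 and 8.34 against 7.95 and 7.22, a difference of 0.74 with siNT replicate 2 as the lowest array. SARAF, which limits store-operated entry, had a difference of -0.26, and UBQLN1, which binds ORAI1, a difference of 0.34. The other UBQLN1 probe sets had -0.43 and -0.18, and those of CRACR2A had -0.12 and 0.27, so that the probe sets of both genes differed in sign.

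In 19 of 21 listed channels of the plasma membrane 0 passed, and the median was 0.02. The values with the smallest p were those of the ATP receptor P2RX5 (0.81), the stretch-activated channel PIEZO1 (0.82), the potassium channel KCNA3 (0.62) and TRPM2 (0.46). In all 4 of these genes siNT replicate 2 was the lowest array. Among 16 genes of inositol trisphosphate and calcium release the median was 0.01 and 0 passed. ITPR2, the remaining receptor of the ITPR family, had signals of 8.08 and 8.23 with siLEF1 and of 7.48 and 6.83 with siNT, a log2 difference of 1.00 (adjusted p = 0.146 from limma, with a standard error of 0.24). Its other 3 probe sets had 1.09, 1.23 and 0.41, also without overlap (27.4% of all probe sets had no overlap with higher siLEF1 signals). TMCO1, a channel that releases calcium from an overfilled store, had a difference of -0.72 and the phosphatase INPP5A a difference of 0.59. The ryanodine receptor RYR2 had a difference of -0.83 and was dim, under the array median on 3 arrays.

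Of 12 calcium pumps and exchangers, with a median of 0.16, 0 passed. ATP2A3, a calcium pump of the endoplasmic reticulum in blood cells, had a log2 difference of 0.60. The plasma membrane pumps ATP2B4 and ATP2B1 had 0.58 and -0.35, and the exchanger SLC24A1 had -0.48. The other probe sets of ATP2B1 lay at 0.01 and 0.12. Those of SLC24A1 lay at -0.12, -0.02 and 0.30, the last under the array median on all 4 arrays. Of 16 measured genes of mitochondrial calcium handling, with a median of 0.09, 0 passed as well. MICU3, a regulator of the mitochondrial calcium uniporter, had signals of 5.93 and 6.17 with siLEF1 and of 7.26 and 7.75 with siNT. Its groups did not overlap, and its log2 difference of -1.46 (standard error 0.21, adjusted p = 0.0731 from limma) was the most negative of the 92 genes by the brightest probe set. Of the other probe sets of the 92 genes, 1 of ITPRID2, which binds inositol trisphosphate receptors, lay at -1.52. Another, of SMDT1, a subunit of the uniporter, lay at -1.15 and was under the array median on 3 arrays. Neither passed, and the brightest probe sets of ITPRID2 and SMDT1 lay at 0.05 and -0.16. The carrier SLC25A23 had a difference of 0.68, the carrier SLC25A25 a difference of -0.70 and the outer membrane channel VDAC1 a difference of 0.71. Of 17 measured genes around calmodulin, calcineurin and NFAT, with a median of 0.17, 0 passed. RCAN2, a calcineurin inhibitor that lay under the array median on all 4 arrays, had a difference of -0.97, the kinase CAMK2D had -0.75, the calcineurin inhibitor CABIN1 had 0.36 and the transcription factor NFATC3 had 0.41. The other CAMK2D probe sets lay at -0.60, -0.43, 0.48 and 0.29, the last of them under the array median on all 4 arrays.

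**Figure D4:**
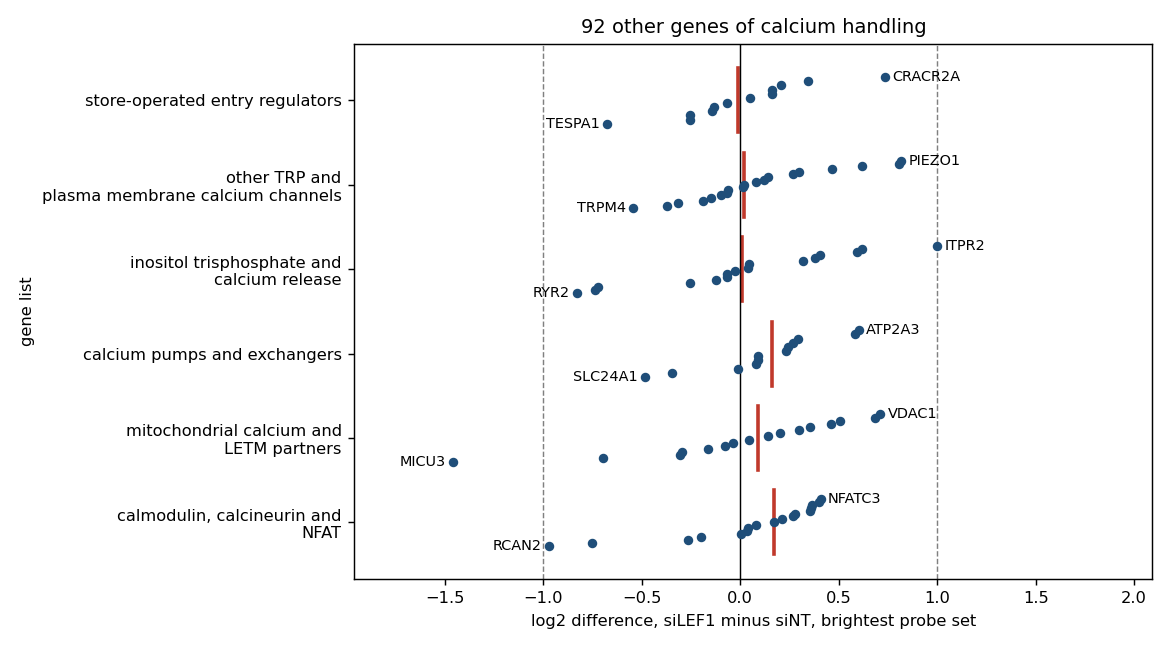
Log2 difference siLEF1 minus siNT (horizontal axis) of 92 genes in 6 lists of calcium handling, with 1 point for each gene by its brightest probe set, red lines at list medians and dashed lines at a 2-fold change. The medians lie between -0.01 and 0.17, and MICU3 at -1.46 is the only gene beyond a 2-fold change by this probe set.

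LETM1 on chromosome 4 and LETM2 on chromosome 8 lie in regions with paralogous neighbours, since each has an FGFR gene on one side and an NSD gene on the other, with a TACC gene next to the FGFR gene. These neighbours were listed with the values of FGFR3 and LETM2 already known. Next to LETM1, the receptor gene FGFR3 was higher in 1 of its 2 probe sets, with signals of 9.29 and 9.25 with siLEF1 and of 7.81 and 7.55 with siNT and a log2 difference of 1.59 (adjusted p = 0.0431 from limma). Its other probe set lay under the lower quartile on all 4 arrays and had 0.05. NSD2, a histone methyltransferase gene on the other side of LETM1, had 6 probe sets with differences from 0.31 to 0.99, none of which passed. TACC3 had 0.56, SLBP 0.20, TMEM129 -0.39 and FAM53A -0.45 by the brightest probe set.

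Next to LETM2, NSD3 had 7 probe sets with log2 differences from -0.84 to 0.46, and none passed. PLPP5, a lipid phosphatase gene beyond NSD3, had 4 probe sets with lower siLEF1 signals and no overlap (21.2% of all probe sets did so). The brightest had signals of 8.12 and 8.28 with siLEF1 and of 9.22 and 9.24 with siNT, a difference of -1.03 (adjusted p = 0.0745 from limma), and the others had -0.87, -0.72 and -0.50. FGFR1 on the other side of LETM2 had 7 probe sets from -0.11 to 0.54, and TACC1, DDHD2 and BAG4 had 0.30, 0.09 and -0.26 by the brightest. By the brightest probe set 1 of the 12 neighbours was called, FGFR3, whose call was known when the list was made.

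**Figure D5:**
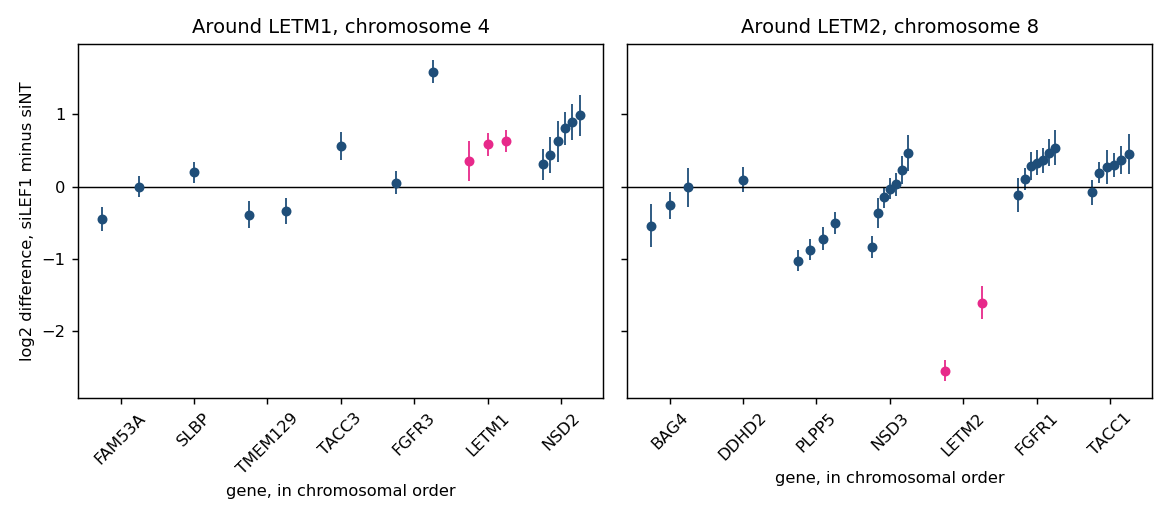
Log2 difference siLEF1 minus siNT (vertical axis) of LETM1 and LETM2 (magenta) and of 6 neighbours of each (blue) in chromosomal order, with 1 point for each probe set and bars for the standard error. LETM2 stands below all neighbours at -2.56 and -1.61, with PLPP5 from -1.03 to -0.50, and LETM1 lies between FGFR3 and NSD2, which reach 1.59 and 0.99.

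The probe sets most like the called TRPC1 probe set over the 4 arrays, by the root mean square difference of values centred on each probe set's mean, were those of the noncoding RNA SNHG33 (0.04), the pseudogene CEP192P1 (0.04) and the DNA polymerase gene POLB (0.07). For the called LETM2 probe set they were TMEM200A (0.18), NRIP1 (0.20) and DNAI7 (0.20). All 6 were themselves called lower, with log2 differences of -2.02, -2.00 and -2.05 for the former and of -2.28, -2.80 and -2.52 for the latter. They were picked for likeness to a called probe set, so nothing is read from their calls. With 4 arrays such likeness is only a description.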

How the data were processed

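RNA of Jurkat cells was measured on 4 arrays, 2 siLEF1 and 2 siNT, grouped by sample labels. The authors summarized the arrays by RMA in Affymetrix Expression Console, for which the submitters list version 1.1, and deposited log2 values of all probe sets. Whether other arrays shared the run is not given in the sources used here. No further normalization was applied. After 62 control probe sets were left out, 54613 were tested as siLEF1 minus siNT with limma 3.58.1 in R 4.3.3 (lmFit, eBayes, 2-sided), with 2 residual and 4.30 prior degrees of freedom. The study's methods compared 3 groups. Symbols came from the platform annotation, with 41091 probe sets holding 1 symbol, 1801 several and 11721 none. Motifs were counted in RefSeq promoters with Python 3.11.15. On simulated data with independent noise, only the estimated differences of the model were checked, so nothing about the calls is read from that check. Members and lists were chosen with earlier results of these data known. Named genes were every member, LEF1, the LETM neighbours, up to 4 genes per calcium list with the smallest p, and the 3 probe sets nearest to each called member. Alternatives were a filter at a mean of 6, other moderation, the replicate block, other centring, other probe set choices, a 1.5-fold or no fold threshold, and omission of each array. Precision is limited by the 4 arrays.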

Additional observations from a re-analysis of the deposited data

How the results depend on the processing

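The array-wide calls, 100 lower and 13 higher, the 2 LETM2 and TRPC1 calls and the absence of calls among 92 calcium genes depended on the settings. With a filter at a mean signal of 6, limma called 4 lower and 1 higher, and 0 of the 17 probe sets tested of the 10 genes, since both called ones are dimmer than the filter (5284 at an unadjusted p under 0.05). Without moderation the F test called 0 and 0, and 0 of the 10 genes (4393 at an unadjusted p under 0.05). With trend and robust moderation the higher calls were 20. Housekeeping centring gave 1265 lower and 25 higher, 4 probe sets of TRPC1 and LETM2 and 2 calcium genes, MICU3 and RCAN2. The housekeeping genes themselves had log2 differences from -0.73 to 0.68. With 1 probe set per gene there were 171 lower and 29 higher, and 1 calcium gene, MICU3. In that fit the 2 called members were the brightest probe sets of TRPC1 and LETM2. Leaving out each array in turn gave 0 to 1287 lower and 0 to 595 higher, 0 to 3 lower probe sets of the 10 genes, and 0 to 2 lower and 0 to 5 higher calcium genes. The upper ends came without siNT replicate 1, where the lone array is assumed to vary like the other group, and the 0 counts came on leaving out either siLEF1 array or siNT replicate 2 (3688, 4623 and 6232 at an unadjusted p under 0.05).

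The replicate numbers share no stated batch, and deviations of same-numbered arrays correlated at -0.15. The replicate block gave 977 lower and 120 higher calls, 4 probe sets of TRPC1 and LETM2 and 1 calcium gene, MICU3. A crossed pairing, chosen after seeing the data, gave 763 lower and 159 higher, 4 and 1. Removal of probe sets ending in x or s, median centring and the other fold thresholds moved none of these counts by over 1.5 times, and in every setting 0 of the 10 genes was called higher.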
